A study of Mus musculus with 16 samples.

Results

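Imprinted genes were followed in whole-genome expression arrays of mouse embryonic gonads. The set was a given list of 36 mouse genes, matched by symbol. Each was read from the probe sets annotated to it alone: those that exceeded the median of 2 or more arrays were kept, and the kept probe set with the highest mean over the 16 arrays stood for the gene. By this rule 31 of the 36 were tested, among 12336 genes tested in all. Of the other 5, H19 had only a probe set that it shares with Mir675, Snrpn had 1 probe set of its own below the filter and 6 that it shares with Snurf, Ascl2 lay below the filter on each of its 3 probe sets, and Rtl1 and Slc22a3 had no probe set named here.

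The study compared gonads that lacked Wnt4, a secreted signal of ovary differentiation, with wild-type gonads in both sexes at 2 stages around sex determination. The 8 groups, of 2 arrays each, were Wnt4 knock-out (KO) testis and wild-type (WT) testis at embryonic day 14.5 (E14.5), KO ovary and WT ovary at E14.5, and the same 4 kinds of gonad at E12.5. The titles of the male arrays call the organ an ovary while their source names call it a testis; testis was used here, and the Xist, Eif2s3y and Sertoli values below bear on it. Gonads were dissected, frozen and genotyped by PCR before total RNA was extracted. The arrays within a group are labelled as biological replicates, and p-values measure the spread between them; the strain, the knock-out allele and the number of embryos behind an array were not given in the sources used here.

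An imprinted gene is expressed mainly from the chromosome inherited from one parent, according to marks set in that parent's germ line, and most lie in clusters ruled by a shared control region. Many act on growth: paternally expressed members such as Igf2 tend to promote it and maternally expressed members such as Cdkn1c, Phlda2 and Grb10 tend to restrain it. In the embryonic gonad these marks are erased in germ cells, to be set anew later in the germ line, while its somatic cells keep the parental pattern. The arrays measured the summed signal of both alleles, so parental origin itself was not measured. In RNA from whole gonads, fewer cells of a type and less RNA per cell cannot be told apart.

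The 16 arrays had mean intensities of 272 to 288 in arbitrary units and medians of 9.28 to 10.4. Xist was 5.92 to 1087 in testis arrays and 3654 to 5805 in ovary arrays, and Eif2s3y on the Y chromosome was 856 to 1350 in testis and 3.67 to 245 in ovary arrays. By an estimate from these genes, 5 arrays held over 10% RNA of the other sex, replicate 1 of WT ovary at E12.5 and replicate 2 of KO ovary at E12.5, WT ovary at E14.5, KO testis at E14.5 and WT testis at E14.5. The ratio of 3′ to 5′ control probe sets, which rises with RNA breakdown, was 1.06 to 2.27; it was 2.27, 1.76 and 1.76 in replicate 1 of KO ovary, replicate 1 of KO testis and replicate 2 of WT ovary at E12.5. The 2 arrays of WT testis at E12.5 differed least from each other, with an SD of log2 differences of 0.142, against 0.335 to 0.587 in the other pairs; they are called the near-identical pair below. Summed markers of Sertoli cells were 7957 to 16243 in testis and 1750 to 5976 in ovary arrays. Wnt4 read 839 and 520 in KO ovaries at E12.5, against 844 and 1822 in WT ovaries at E12.5, and 351 and 302 in KO ovaries at E14.5, against 1138 and 1151 in WT ovaries at E14.5. It was lower in KO than in WT gonads averaged over sex and stage (log2 change -1.07 ± 0.179, SE, adjusted p = 0.00927 by limma), but only the comparison in E14.5 ovaries passed singly (-1.80, adjusted p = 0.0445); the part of the transcript that was deleted was not given.

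Promoters are shown for Phlda2 and Asb4, the members with the largest differences below, because Phlda2 has a start rich in CpG, the dinucleotide that carries DNA methylation, and Asb4 has starts that are not. The windows run from 250 bases before to 50 after a RefSeq transcript start (build GRCm38.p6), 5′ to 3′ on the gene's strand, with every CpG in capitals.
Phlda2, chr7:143502475-143502774, minus strand: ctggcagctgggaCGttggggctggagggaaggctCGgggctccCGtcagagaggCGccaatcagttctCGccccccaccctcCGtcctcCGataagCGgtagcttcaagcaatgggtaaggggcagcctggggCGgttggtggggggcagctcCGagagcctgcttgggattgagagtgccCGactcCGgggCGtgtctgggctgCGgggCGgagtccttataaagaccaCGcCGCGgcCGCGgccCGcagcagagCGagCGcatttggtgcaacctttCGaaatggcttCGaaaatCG
Asb4 upstream start, chr6:5383136-5383435, plus strand: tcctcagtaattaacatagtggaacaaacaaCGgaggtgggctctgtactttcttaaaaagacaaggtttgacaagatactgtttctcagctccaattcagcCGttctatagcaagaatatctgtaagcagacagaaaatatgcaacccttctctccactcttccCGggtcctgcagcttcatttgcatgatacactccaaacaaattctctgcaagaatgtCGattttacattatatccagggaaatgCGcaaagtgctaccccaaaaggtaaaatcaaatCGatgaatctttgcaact
Asb4 downstream start, chr6:5390160-5390459, plus strand: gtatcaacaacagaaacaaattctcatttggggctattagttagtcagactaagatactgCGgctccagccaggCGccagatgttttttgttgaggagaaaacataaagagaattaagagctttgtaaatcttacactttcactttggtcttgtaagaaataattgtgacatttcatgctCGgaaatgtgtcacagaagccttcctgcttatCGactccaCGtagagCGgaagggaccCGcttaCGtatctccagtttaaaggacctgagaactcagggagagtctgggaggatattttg
The Phlda2 window held 26 CpG, more than 83.1% of 32851 promoters in the RefSeq table, and the Asb4 windows held 6 and 8. The median was 7 CpG over all promoters and 11.5 over the 46 promoters of 29 members found in the table. The letters CTTTGA, a core read by the TCF and LEF factors of Wnt signalling, were searched on both strands and occurred in 4 of the 46 member promoters and in 16.003% of all promoters; AAGGTCA, a site of the gonadal factor Nr5a1, occurred in 1 member promoter and in 4.72% of all. Neither was among the letters of the 3 windows shown. The windows of Peg3 and Usp29, genes read in opposite directions from one control region, shared 263 bases.

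Over the 8 groups, 5 of the 31 tested members differed in limma's F test at an adjusted p under 0.05, against 19.4% of all genes tested. They were Phlda2 (adjusted p = 3.37e-05), Asb4 (9.03e-05), Cdkn1c (0.000509), Nnat (0.00867) and Ppp1r9a (0.0284). The range of their group means was 3.65 log2 units for Phlda2 and 3.03 for Asb4, and 0.94 to 1.10 for the other three. Ppp1r9a, an actin-binding scaffold of neurons, was not called with the near-identical pair averaged (adjusted p = 0.0726), with all its probe sets averaged (0.155) or without the 5 arrays with over 10% RNA of the other sex (0.0566). Of the 31, 26 lay above the array median on every array. Phlda2 and Slc22a18 passed that filter through 4 arrays, Peg10 and Usp29 through 2, and Kcnq1 through 9; the 4 arrays of Phlda2 and the 2 of Peg10 and of Usp29 were all WT ovary arrays, so these genes could be tested only because of the group where they were high.

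**Figure D1:**
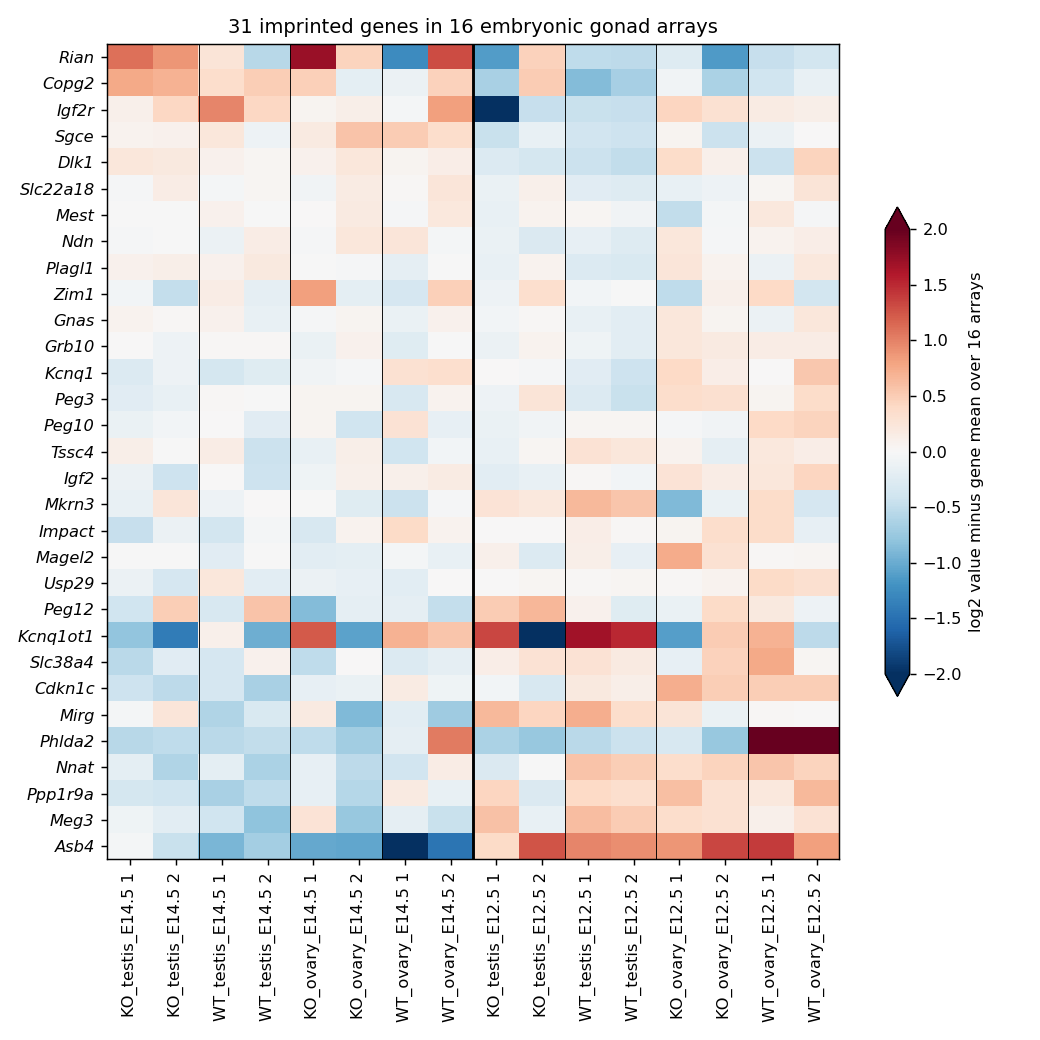
Log2 value of each of 31 imprinted genes (rows, ordered by their difference between stages) minus its mean over 16 arrays (columns, replicates 1 and 2 of each group; the thick line parts E14.5 on the left from E12.5 on the right). Colours are limited to 2 log2 units either way. The dark red cells of Phlda2 mark WT ovary at E12.5, and the blue cells of Asb4 on the left mark its lower signal at E14.5.

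KO and WT gonads were compared within each sex and stage to find the members that differed with the loss of Wnt4. In E12.5 ovaries 1 of 31 tested members passed at an adjusted p under 0.05, against 0.292% of all genes tested: Phlda2, a small pleckstrin-homology protein of the Kcnq1 cluster on chromosome 7 that restrains growth of the placenta, was lower in KO than in WT ovaries. It read 8.78 and 5.39 in the KO ovaries at E12.5, against 97.7 and 146 in WT ovaries at E12.5. Both KO arrays lay below the array medians and both WT arrays far above them, with no overlap. Means were 7.09 ± 2.40 in KO and 122 ± 34.0 in WT ovaries (SD, n = 2 each), with an adjusted p of 0.000432 by limma. With the KO arrays set to their array medians, WT ovaries were 9.11-fold higher on the scale of log2(intensity + 4), an estimate and not a confidence bound. The fitted log2 change, -3.49 ± 0.310 (SE), depends on the added constant, being -3.93 with 1 and -2.56 with 16. Phlda2 was tested only because the WT ovary arrays, where it is high, carried it past the filter.

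Outside WT ovary, Phlda2 lay below the array median in all 12 arrays. At E14.5 it read 7.20 and 5.85 in KO ovaries, against 10.03 and 28.7 in WT ovaries, which do not overlap but were not called (log2 change -1.03 ± 0.310, SE, adjusted p = 0.296 by limma). In testes it read 6.87 and 7.21 in KO and 6.97 and 7.33 in WT arrays at E14.5, and 6.28 and 5.45 in KO and 7.01 and 7.83 in WT arrays at E12.5. Thus the WT ovary arrays were the 4 highest of the 16, and the highest of the other 12 was a KO ovary array at 8.78. The log2 changes in testes, -0.01 at E14.5 and -0.21 at E12.5, were smaller than their standard error of 0.310.

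Averaged over sex and stage, Phlda2 was lower in KO gonads (log2 change -1.19 ± 0.155, SE, adjusted p = 0.00225 by limma). It was the 1 of 31 members called, against 1.43% of all genes. Both this test and the next were open to Phlda2 only because WT ovary arrays, where it is high, carried it past the filter. With the filter at 8 arrays Phlda2 was not tested. The fitted knock-out difference of Phlda2 was larger in ovary than in testis (difference of log2 changes, ovary minus testis, -2.15 ± 0.310, SE, adjusted p = 0.0377 by limma). Of all genes, 0.073% passed that test. WT testis arrays already lay below the array medians, so a fall in testis could not be measured. The test therefore cannot decide whether Wnt4 loss bears on Phlda2 in ovary only. Between stages the knock-out effect on Phlda2 differed by 1.33 ± 0.310 (E14.5 minus E12.5, SE, adjusted p = 0.59); limma called 0 members there, with 2 at an unadjusted p under 0.05, against 0.00811% of all genes called. The call of the difference between ovary and testis was lost when either array of KO testis E14.5, WT testis E14.5, KO ovary E14.5, KO testis E12.5 or WT testis E12.5 was left out, or replicate 2 of WT ovary E12.5 (difference in Phlda2 -2.19 to -2.01, adjusted p 0.0572 to 0.166). It was also lost with the near-identical pair averaged (adjusted p = 0.153), without the 3 arrays of high 3′ to 5′ ratio (0.0872), with replicate number as a block (0.0655), without an intensity trend (0.0622) and with the share of other-sex RNA as a covariate (0.055). The change in E12.5 ovaries itself was -3.44 (adjusted p = 0.0246) without the 3 arrays of high 3′ to 5′ ratio and -3.55 (adjusted p = 0.000766) without the 5 arrays with over 10% RNA of the other sex. Fitted on the 4 E12.5 ovary arrays alone, the change kept its size and was not called (adjusted p = 0.308). Phlda2 had 1 probe set, so no second measurement of it exists on these arrays.

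**Figure D2:**
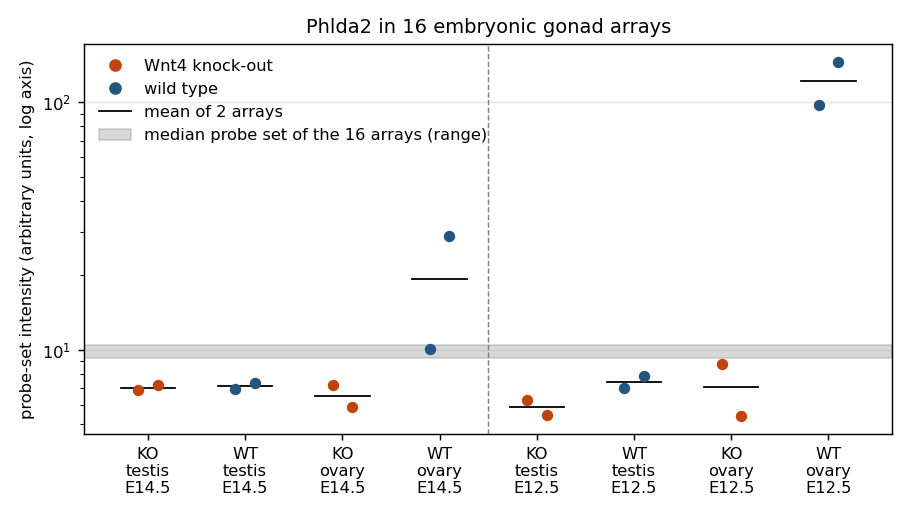
Phlda2 probe-set intensity (arbitrary units, logarithmic axis) in 16 arrays, with KO left of WT in each pair; points are arrays, black lines the mean of 2 arrays, and the grey band the range of the array medians, 9.28 to 10.4. The 2 WT ovary arrays at E12.5 stand at 97.7 and 146, and the 12 arrays that are not WT ovary lie at or below 8.78.

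Summed markers of some cell types parted the KO from the WT ovaries at E12.5. Those of Sertoli cells, germ cells, macrophages and interstitium overlapped between them. With 2 arrays per group, sums can part without a real difference, and no test of them was run. The summed intensity of 13 pre-granulosa markers, all measured, was 2945 to 3598 in KO and 4231 to 5424 in WT ovaries. That of 11 measured of 12 chromaffin and sympathetic neuron markers was 2512 to 5360 in KO and 1337 to 1735 in WT ovaries. Fetal Leydig and adrenal markers (7 measured of 9) summed to 725 to 1411 in KO and 210 to 234 in WT ovaries, and striated muscle markers (10 of 10) to 662 to 1400 in KO and 176 to 249 in WT ovaries. Mesonephros markers (6 measured of 8) summed to 1919 to 2026 in KO and 2164 to 3007 in WT ovaries, endothelial markers (9 of 9) to 2595 to 2637 in KO and 2154 to 2441 in WT ovaries, and erythroid markers (7 of 8) to 17146 to 18498 in KO and 18921 to 21963 in WT ovaries. On each of these arrays 5 to 13 markers of a list lay above the array median. Over all 16 arrays, the 4 WT ovary arrays had the highest sums of 2 lists, as they had the highest Phlda2. Mesonephros markers summed to 2039 to 3007 in WT ovary and 605 to 2026 in the other 12 arrays, and pre-granulosa markers to 4231 to 6269 in WT ovary and 1823 to 3985 in the other 12. The part of any of these lists in the Phlda2 difference was not tested.

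No member was called between KO and WT gonads in the other 3 comparisons by limma, where few genes were called at all. In E14.5 ovaries 2 members had an unadjusted p under 0.05, against 0 called (0.543% of all genes called); they were Phlda2, above, and Asb4, at 278 and 275 in KO and 105 and 203 in WT ovaries (log2 change 0.90 ± 0.328, SE, adjusted p = 0.537). In E12.5 testes 5 members had an unadjusted p under 0.05 and 0 were called (0.0405% of all genes): Nnat, Peg3, Cdkn1c, Igf2r and Kcnq1ot1. Nnat, a small membrane protein of developing neurons, read 1832 and 2212 in KO and 3324 and 3127 in WT testes at E12.5 (-0.68 ± 0.208, SE, adjusted p = 0.246). These values do not overlap, but the WT pair is the near-identical one. In E14.5 testes no member had an unadjusted p under 0.05 and 0 were called (0.00811% of all genes). The median log2 change of the tested members was -0.00 in E12.5 ovaries, -0.04 in E14.5 ovaries, -0.02 in E12.5 testes and 0.01 in E14.5 testes, against 0.03, -0.02, 0.10 and 0.03 over all genes in the same order.

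Testis was compared with ovary to find members whose level followed sex. In WT gonads at E12.5, 1 of 31 members was called, against 0.608% of all genes: Phlda2, which was lower in testis (7.01 and 7.83 in testis, against 97.7 and 146 in ovary; adjusted p = 0.000265 by limma). With the testis arrays, which lay below their medians, set to those medians, ovary was at least 8.56-fold higher. At E14.5 limma called 0 (3.83% of all genes), with 6 members at an unadjusted p under 0.05. Averaged over genotype and stage, 4 were called, each lower in testis, against 11.2% of all genes in either direction and 5.87% lower in testis: Phlda2, Cdkn1c, Kcnq1 and Igf2. For Phlda2 the averaged call rests on the WT ovary arrays. In KO gonads its means were 7.04 in testis and 6.53 in ovary at E14.5, and 5.86 in testis and 7.09 in ovary at E12.5. All these KO arrays lay below the array medians. Of the 4 called members, 3 belong to the Kcnq1 cluster, where 6 members were tested, and 1 to the other 25 tested members. Phlda2 entered the test only through WT ovary arrays, and Kcnq1 lay below the array median on 7 arrays. The cluster count is therefore not read as a pattern of the cluster. Among the 26 members above the array median on every array, 2 were called, Cdkn1c and Igf2. Igf2 lies beyond that cluster on the same chromosome 7, under its own control region.

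Cdkn1c, an inhibitor of cyclin-dependent kinases that stops cells from dividing, was lower in testis at both stages. At E14.5 it read 2844 and 2636 in KO testes and 3021 and 2441 in WT testes, against 3384 and 3486 in KO ovaries and 4257 and 3604 in WT ovaries. At E12.5 it read 3667 and 3066 in KO testes and 4380 and 4149 in WT testes, against 6332 and 5336 in KO ovaries and 5333 and 5361 in WT ovaries. Within each stage, every testis array lay below every ovary array. The log2 change was -0.49 ± 0.0712 (SE, adjusted p = 0.000576 by limma, 8 arrays each).

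Igf2, the growth factor expressed from the paternal chromosome in embryonic tissues, ranged over 5841 to 7903 in testis arrays with a median of 7100, and over 7391 to 10489 in ovary arrays with a median of 8722. The ranges overlap over the 8 arrays each, but at E12.5 the testis arrays ended at 7903 and the ovary arrays began at 8651. The log2 change of Igf2 was -0.34 ± 0.0737 (SE, adjusted p = 0.00933 by limma) and -0.23, not called, on its other probe set; without the 3 arrays of high 3′ to 5′ ratio it was -0.29 and not called (adjusted p = 0.0809). Kcnq1, a potassium channel subunit, ranged over 6.81 to 10.5 in testis and 9.78 to 16.9 in ovary arrays, levels around the array median, 7 of the 16 values lying below it, and its log2 change was -0.40 ± 0.0909 (SE, adjusted p = 0.0117 by limma).

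The other tested members of the cluster did not pass. Kcnq1ot1, the noncoding RNA that runs antisense to Kcnq1 and silences the cluster on the paternal chromosome, had a log2 change of -0.25 ± 0.493 between testis and ovary (SE, adjusted p = 0.779 by limma). Its replicates differed widely: it read 702 and 47.3 in the KO testes at E12.5 and 650 and 129 in the KO ovaries at E14.5. Slc22a18, a membrane transporter, read 6.39 to 10.9 over the 16 arrays (-0.10 ± 0.0770, SE), and Tssc4, a factor of spliceosome assembly, 125 to 208 (0.06 ± 0.121, SE). Pre-granulosa markers summed to 1823 to 2893 in testis and 2945 to 6269 in ovary arrays; their part in these sex differences was not tested.

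**Figure D3:**
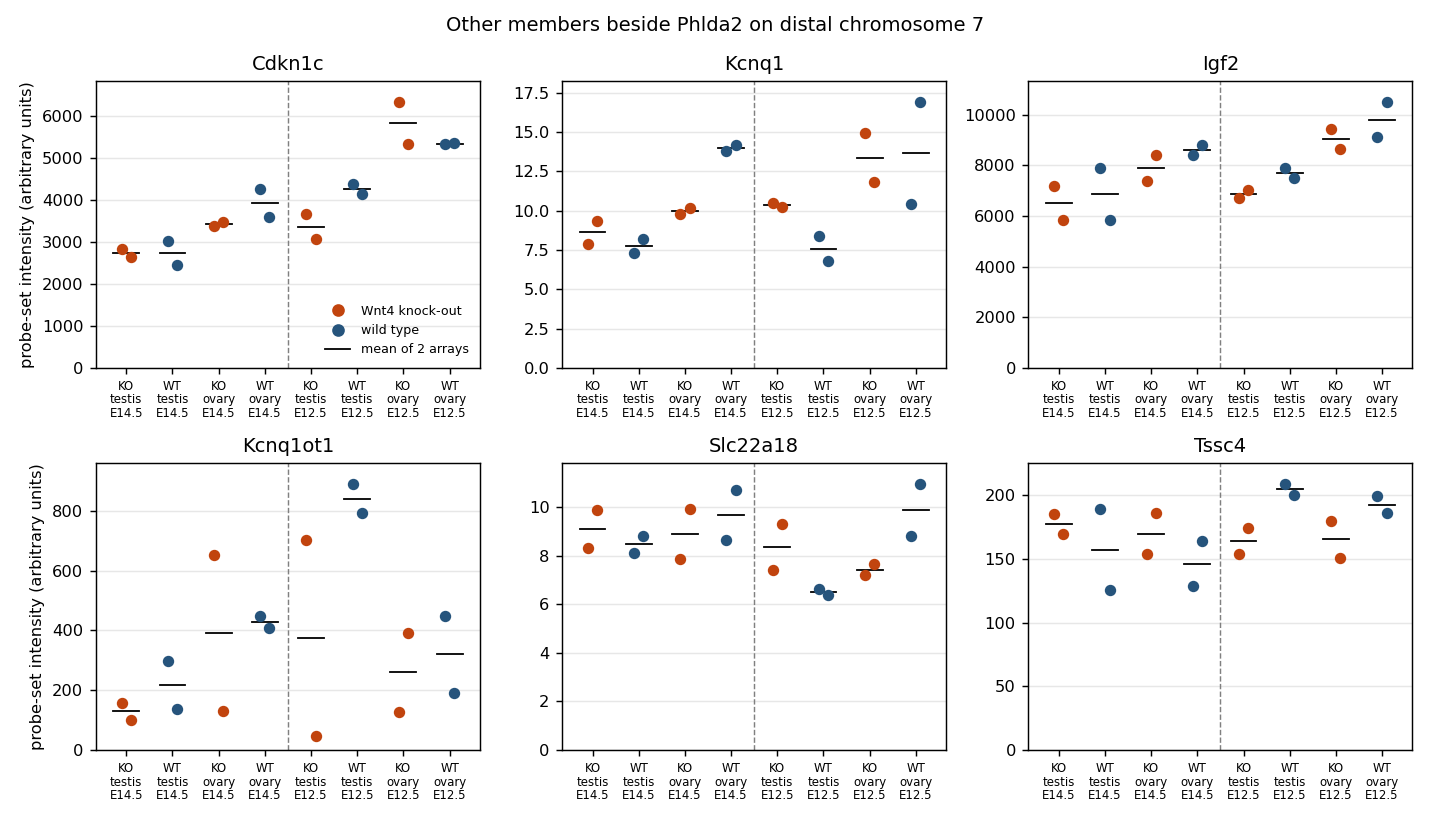
Intensity (arbitrary units, axes from 0) of 5 Kcnq1-cluster members other than Phlda2 and of Igf2 in 16 arrays, with KO left of WT, testis left of ovary and E14.5 left of E12.5; points are arrays and black lines means of 2. Cdkn1c and Igf2 were lower in testis, Kcnq1 lay at 6.81 to 16.9, and the replicates of Kcnq1ot1 stood far apart.

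The largest set of differences lay between the stages. Averaged over genotype and sex, 12 of 31 members were called (38.7%), against 26.5% of all genes; 9 were lower at E14.5 (13.5% of all genes) and 3 higher (13% of all genes). Among the 26 members above the array median on every array, 10 were called, 7 of them lower. The lower ones were Asb4, Cdkn1c, Nnat, Ppp1r9a, Meg3, Phlda2, Slc38a4, Mirg and Usp29, and the higher ones Sgce, Copg2 and Igf2r. The median log2 change of the tested members was -0.16, against -0.03 over all genes. By the parent of the active copy as commonly reported, 8 of 14 maternally expressed members tested and 4 of 16 paternally expressed members tested were called. Gnas, of mixed origin, was not. The 8 include Phlda2 and the 4 include Usp29, which entered the test only through WT ovary arrays. The 8 also include Igf2r and Mirg, whose calls depended on single arrays. The counts are therefore not read as a difference by parent.

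Asb4, a maternally expressed adaptor of a ubiquitin ligase in the Peg10-Sgce cluster of chromosome 6, had the largest stage difference of the members. It read 552 and 413 in KO testes, 300 and 351 in WT testes, 278 and 275 in KO ovaries and 105 and 203 in WT ovaries at E14.5. At E12.5 it read 742 and 1358 in KO testes, 1115 and 1087 in WT testes, 1042 and 1436 in KO ovaries and 1494 and 998 in WT ovaries. The highest of the 8 arrays at E14.5 was 552 and the lowest of the 8 at E12.5 was 742, so the stages do not overlap. The averaged log2 change was -1.99 ± 0.164 (SE; 95% interval -2.35 to -1.64), or 3.98-fold, with an adjusted p of 1.86e-06 by limma.

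Asb4 was measured a second time by another probe set, which gave a log2 change of -2.25 averaged over genotype and sex. In WT ovary the log2 change of Asb4 was -3.03 ± 0.328 (SE, adjusted p = 0.000156) and -2.98 on the second probe set; in WT testis it was -1.75 ± 0.328 (SE, adjusted p = 0.00493) and -1.73. The fall was larger in ovary than in testis: the stage effect in testis minus that in ovary, averaged over genotype, was 1.17 ± 0.328 (SE, adjusted p = 0.0408 by limma) and 1.17 on the second probe set. Of the members tested, 3 passed this test (Asb4, Phlda2 and Plagl1), or 9.68%, against 10.3% of all genes, so the count is no higher than over all genes.

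The Asb4 call in that test was lost without any 1 of 12 arrays (adjusted p 0.053 to 0.0945): both of KO testis E14.5, WT testis E14.5, KO ovary E14.5, WT testis E12.5 and KO ovary E12.5, and replicate 1 of WT ovary E14.5 and of KO testis E12.5. Plagl1, a zinc finger factor that binds other imprinted genes, had a difference of 0.44 ± 0.126 (SE, adjusted p = 0.0441), which was lost without any 1 of 12 arrays (adjusted p 0.063 to 0.108): both of each E14.5 group but WT ovary, both of WT testis E12.5, and replicate 1 of WT ovary E14.5, KO testis E12.5 and KO ovary E12.5 and replicate 2 of WT ovary E12.5. Its second probe set gave -0.29. Phlda2 had a difference of 1.36 ± 0.310 (SE, adjusted p = 0.0198 by limma), averaged over genotype like the others. Its stage changes were 0.16 in KO testis and -0.06 in KO ovary, and -0.03 in WT testis and -2.53 in WT ovary. Its testis arrays lay below the array medians at both stages, so a fall in testis could not be measured. The call was lost without replicate 1 (0.0565) or 2 (0.0529) of WT testis E12.5.

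**Figure D4:**
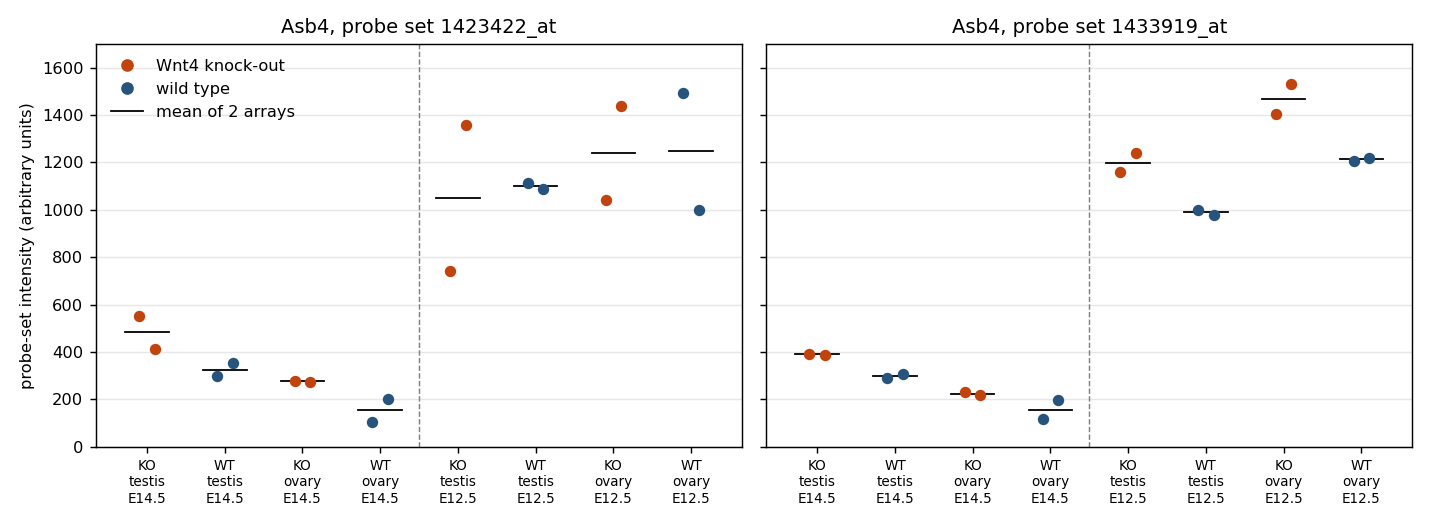
Asb4 intensity (arbitrary units, axis from 0) on its 2 probe sets in 16 arrays, with KO left of WT, testis left of ovary and E14.5 left of E12.5; points are arrays and black lines means of 2. On the left-hand probe set the arrays at E14.5 lie at 105 to 552 and those at E12.5 at 742 to 1494.

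In WT ovary alone, 2 members were called between the stages, both lower at E14.5, against 4.36% of all genes: Asb4, above, and Phlda2 (10.03 and 28.7 at E14.5, against 97.7 and 146 at E12.5; log2 change -2.53 ± 0.310, SE, adjusted p = 0.000376 by limma, and 0.0602 when only these 4 arrays were fitted). In WT testis 7 were called, against 10.6% of all genes. Lower at E14.5 (3.86% of all genes) were Asb4, Meg3, Nnat, Ppp1r9a and Cdkn1c, with log2 changes of -1.75, -1.17, -0.94, -0.94 and -0.65, and higher (6.73% of all genes) were Copg2 (1.19) and Plagl1 (0.43). With the near-identical pair at E12.5 counted as 1 sample, none of the 7 passed. The calls also depended on single arrays, and fewer members passed without any 1 array of WT testis at either stage. Without the 5 arrays with over 10% RNA of the other sex, 3 were called.

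Cdkn1c was lower at E14.5 in both sexes. Its testis arrays ended at 3021 at E14.5 and began at 3066 at E12.5, and its ovary arrays ended at 4257 at E14.5 and began at 5333 at E12.5. The log2 change averaged over genotype and sex was -0.54 ± 0.0712 (SE, adjusted p = 0.00012 by limma). Nnat ranged over 1436 to 2477 with a median of 1828 at E14.5, and over 1832 to 3324 with a median of 3030 at E12.5 (-0.64 ± 0.104, SE, adjusted p = 0.000637). Slc38a4, an amino acid transporter, had medians of 867 at E14.5 and 1213 at E12.5 (-0.49 ± 0.132, SE, adjusted p = 0.0153), and its other probe set gave -0.21, not called.

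Ppp1r9a lies near Asb4 on chromosome 6 and had medians of 392 at E14.5 and 657 at E12.5 (-0.66 ± 0.123, SE, adjusted p = 0.00169); its 2 other probe sets gave -0.88 each. Sgce, a sarcoglycan of the same cluster, had medians of 722 at E14.5 and 522 at E12.5 (0.47 ± 0.101, SE, adjusted p = 0.00434), but its other probe set gave -0.39. Peg10, a gene derived from a retrotransposon that shares its control region with Sgce, read 4.54 to 11.3 over the 16 arrays and was not called (-0.16 ± 0.0880, SE). The 4 tested members of this cluster thus included 2 that fell, 1 that rose on 1 of 2 probe sets, and 1 near background. Of all genes, 13.5% were called lower and 13% higher, and these counts are not read as a pattern of the cluster.

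Of the Dlk1-Meg3 cluster, 2 of 4 tested members were called, both lower at E14.5. Of all genes, 26.5% were called and 13.5% were lower. Both members are noncoding RNAs of the maternal chromosome, and the call of Mirg depended on single arrays. With 4 members tested, the count is not read as a pattern of the cluster. Meg3 ranged over 2259 to 4768 at E14.5 and 3589 to 6060 at E12.5 (-0.66 ± 0.142, SE, adjusted p = 0.00445), and 8 of its 9 other probe sets also had negative changes; 1 gave 0.71. Mirg ranged over 45.0 to 103 at E14.5 and 78.0 to 146 at E12.5 (-0.58 ± 0.168, SE, adjusted p = 0.0221), and its second probe set gave -0.55. Rian, the third noncoding RNA, ranged over 415 to 3319 at E14.5 and 455 to 1378 at E12.5 and did not pass (0.98 ± 0.344, SE, adjusted p = 0.0507); its 3 other probe sets gave 1.97, 0.04 and -0.84. Dlk1, a membrane protein related to Notch ligands and expressed from the paternal copy, ranged over 4039 to 4617 at E14.5 and 2787 to 5349 at E12.5 (0.26 ± 0.102, SE, adjusted p = 0.0722).

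Igf2r, the receptor that clears IGF2, had medians of 578 at E14.5 and 435 at E12.5 (0.72 ± 0.237, SE, adjusted p = 0.0396), with a single low value of 79.5 in replicate 1 of KO testis E12.5, one of the arrays of high 3′ to 5′ ratio; without those 3 arrays the change was 0.47 (adjusted p = 0.0679). Its other probe set read 293 on that array and gave a stage change of 0.21, not called. Copg2, a coat protein subunit next to Mest, had medians of 662 at E14.5 and 333 at E12.5 (0.73 ± 0.171, SE, adjusted p = 0.00724); its call was lost without the 5 arrays with over 10% RNA of the other sex (0.55, adjusted p = 0.103). Usp29 read 4.81 to 8.96 at E14.5 and 7.12 to 10.4 at E12.5, and 14 of these 16 values lay below the array median. It entered the test through the 2 WT ovary arrays at E12.5, so its call (adjusted p = 0.0471) is not read as a change.

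The calls of Usp29, Igf2r and Mirg averaged over genotype and sex depended on single arrays. Usp29 kept its call only without replicate 2 of WT ovary E14.5 or replicate 1 of WT testis E14.5 (adjusted p 0.0502 to 0.11 without the other 14). Igf2r lost it without any 1 of 11 arrays (0.0573 to 0.0896): both of KO testis E14.5, KO ovary E14.5, WT testis E12.5 and KO ovary E12.5, replicate 1 of WT testis E14.5, and replicate 2 of WT ovary at both stages. Mirg lost it without any 1 of 6 arrays (0.0501 to 0.0636): replicate 1 of KO testis and WT testis at both stages, replicate 2 of WT ovary E14.5 and replicate 1 of KO ovary E12.5.

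**Figure D5:**
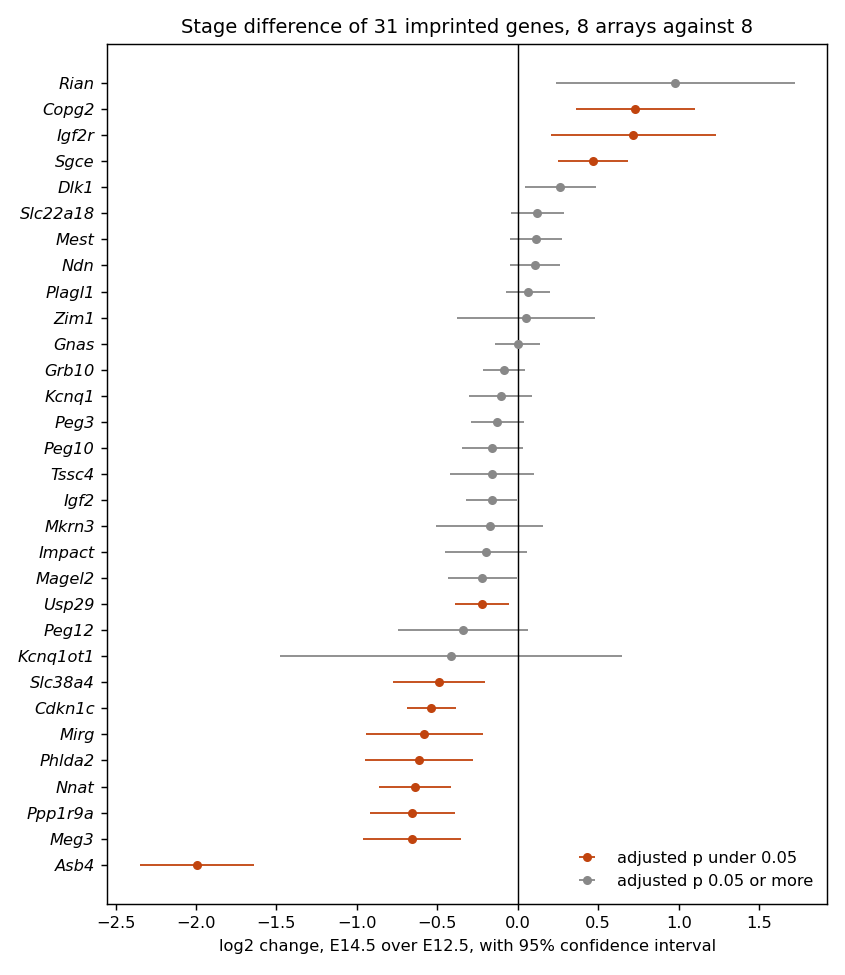
Log2 change of 31 imprinted genes, E14.5 over E12.5, averaged over genotype and sex (points) with 95% confidence intervals from limma; orange marks an adjusted p under 0.05 over all genes. Asb4 stands apart at -1.99, and Rian, at 0.98, has a wide interval and did not pass.

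Summed markers of several cell types differed between the stages in the same arrays. Erythroid markers (7 measured of 8) summed to 2401 to 6340 at E14.5 and 17146 to 22593 at E12.5, and chromaffin and neuron markers to 170 to 240 at E14.5 and 373 to 5360 at E12.5. Germ cell markers (11 measured of 12) summed to 8204 to 13045 at E14.5 and 2784 to 5975 at E12.5. Fetal Leydig and adrenal markers summed to 148 to 12534 at E14.5 and 210 to 1411 at E12.5, so their stages overlap. At E14.5 they summed to 7005 to 12534 in testis and 148 to 3385 in ovary arrays. From 4 to 6 erythroid, 2 to 10 neuron, 9 to 11 germ cell and 1 to 7 Leydig markers lay above the array median on each array. The part of these differences in the stage differences of the members was not tested.

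The remaining tested members were called in no comparison. Gnas, a stimulatory G protein subunit, read 8684 to 11811, Peg3, a zinc finger protein, 5272 to 9288, Mest, an enzyme-like membrane protein, 4662 to 7565, Grb10, an adaptor that dampens insulin receptor signalling, 3983 to 5508, and Ndn, a growth-restraining MAGE protein, 2902 to 4187 over the 16 arrays. Impact, a regulator of translation, read 249 to 450, and Zim1, Mkrn3, Peg12 and Magel2 between 11.9 and 94.5. Between stages the averaged log2 changes of these 10 members ran from -0.34 (Peg12) to 0.11 (Mest).

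For several members the chosen probe set and the others disagreed between arrays. Grb10 read 4329 to 5508 in the 3 arrays of high 3′ to 5′ ratio and 3983 to 5327 in the other 13, while another of its probe sets read 6.40 to 10.4 in those 3 and 82.1 to 1432 in the other 13. For Rian, another probe set read 57.1 to 103 in those 3 arrays and 109 to 2235 in the other 13, and the chosen one 458 to 836 and 415 to 3319. For Meg3, the probe set with the opposite stage change read 476 to 1105 in the 3 arrays and 1396 to 5124 in the other 13, against 4858 to 5962 and 2259 to 6060 on the chosen one. That Grb10 probe set was also low in 2 arrays without a high ratio. It read 82.1 in replicate 2 of KO ovary E12.5 (ratio 1.35) and 97.1 in replicate 1 of WT ovary E14.5 (ratio 1.14). The 3 arrays of high ratio were all at E12.5, and a link between the ratio and these probe sets was not tested.

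Other imprinted genes, taken from a second list of 46 of which 29 were tested, gave 7 called higher and 6 lower at E14.5 averaged over genotype and sex, against 13% of all genes higher and 13.5% lower. Dcn, a matrix proteoglycan, was higher (log2 change 1.47 ± 0.071, SE), and Th and Ddc, enzymes of catecholamine synthesis that also stand on the neuron list above, were lower (-1.72 ± 0.130 and -1.87 ± 0.153, SE). Between KO and WT ovaries at E12.5 1 of the 29 was called, against 0.292% of all genes, Th, which was higher in KO (2.32 ± 0.259, SE, adjusted p = 0.00168 by limma). In testis against ovary, 4 were higher and 3 lower, against 5.29% of all genes higher and 5.87% lower, led by Tspan32 (0.89 ± 0.092, SE, higher in testis).

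Among 18 tested of 19 genes that set or keep imprints, 3 were higher and 3 lower at E14.5, where 13% of all genes were higher and 13.5% lower, as for the next 2 lists. Dnmt3l, a cofactor of DNA methylation in male germ cells, averaged 22.4 ± 11.5 at E14.5 and 5.14 ± 0.257 at E12.5 in WT testis (SD, n = 2 each; adjusted p = 0.00411 by limma); the E12.5 arrays are the near-identical pair and lay below their medians, so no size is given. Zfp57, a zinc finger protein that protects imprints, was lower at E14.5 (-0.71 ± 0.177, SE), as was Ezh2, a histone methyltransferase (-0.32 ± 0.077, SE). Of 15 tested of 17 partners of the IGF pathway, 4 were higher and 3 lower at E14.5; Igfbp2, which binds IGFs outside cells, was higher (1.03 ± 0.090, SE), and was lower in KO than in WT ovaries at E12.5, at 835 ± 27.8 in KO and 2192 ± 160 in WT (SD, n = 2 each; -1.39 ± 0.180, SE, adjusted p = 0.00454). Of 13 tested of 18 non-imprinted relatives of the members, 3 were higher and 3 lower at E14.5. Phlda1, a relative of Phlda2, was lower at E14.5 (-0.80 ± 0.148, SE) and was not called between KO and WT ovaries. Rtl3, another of these relatives, was higher in KO than in WT ovaries at E14.5 (2.41 ± 0.242, SE, adjusted p = 0.00191 by limma). It was the 1 of 13 called there, against 0.543% of all genes.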

How the data were processed

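Total RNA of 16 gonad samples was hybridised to Affymetrix Mouse430_2 arrays, 2 for each of 8 groups. The deposited intensity values, 1 per probe set, were made with MAS5 per the submitters' processing notes; its version and scaling target were not given in the sources used here. MAS5 values have no true 0.

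Values were taken as log2(intensity + 4), where 4 is about the 20th percentile of an array. Of 45101 probe sets, 64 controls were left out and 25620 that exceeded the array median in 2 arrays were kept. By the platform annotation, 34945 probe sets had 1 gene symbol, 932 several and 9160 none; the kept probe set of highest mean stood for each of 12336 genes. limma 3.58.1 in R 4.3.3 fitted the 8 group means over all arrays, with an intensity trend and 8 residual degrees of freedom, and tested 15 comparisons with Benjamini-Hochberg adjustment over all genes at 0.05. In simulated data with 12336 genes, the comparison of KO with WT ovary at E12.5 recovered 47 of 100 genes changed 2-fold and 87 of 100 changed 4-fold, with 11 unchanged genes called.

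Members and lists were chosen with earlier results of these data known. Any of the 36 members could be named, and values per array were given for called members and partners in their domain. Of each other list up to 6 called genes were named, not always those of smallest p. Deviations of same-numbered replicates had r of -0.66 to 0.08 over 6 group pairs at E12.5 and -0.29 to 0.58 over 6 at E14.5, where 3 of 6 exceeded 0.1: KO testis with WT testis (0.58), whose second replicates both hold over 10% RNA of the other sex, and KO ovary with KO testis (0.21) and with WT testis (0.12). As not every pair exceeded 0.1, the numbers were not taken as pairs. Alternatives covered the pseudocount, filter, normalization, variance model, array weights, replicate block, probe sets, samples fitted and doubtful arrays. Figures used matplotlib 3.10.9 and Python 3.11.15.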

Additional observations from a re-analysis of the deposited data

Results flagged for a closer look

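Differences of an effect between sexes passed limma's test of the difference itself for 3 members: 1 of 31 for the knock-out effect, against 0.073% of all genes, and 3 of 31 (9.68%) for the stage effect, against 10.3% of all genes. For Phlda2, the log2 change of KO over WT in ovary minus that in testis, averaged over stage, was -2.15 (adjusted p = 0.0377): the changes were -1.03 in ovary and -0.01 in testis at E14.5, and -3.49 in ovary and -0.21 in testis at E12.5. The stage change of Phlda2 in testis minus that in ovary, averaged over genotype, was 1.36 (adjusted p = 0.0198), with 0.16 in KO testis and -0.06 in KO ovary, and -0.03 in WT testis and -2.53 in WT ovary. Phlda2 lay below the array median outside WT ovary, so the sizes depend on the added constant and a fall in testis could not be measured. It was tested only because the WT ovary arrays, where it is high, carried it past the filter. For Asb4 the same difference of stage changes was 1.17 (adjusted p = 0.0408), with -1.07 in KO testis and -2.13 in KO ovary, and -1.75 in WT testis and -3.03 in WT ovary. For Plagl1 it was 0.44 (adjusted p = 0.0441), a direction its second probe set did not share, with 0.14 in KO testis and -0.17 in KO ovary, and 0.43 in WT testis and -0.14 in WT ovary. Beside them, pre-granulosa markers summed to 1823 to 2893 in testis and 2945 to 6269 in ovary arrays, and mesonephros markers to 605 to 1568 in testis and 956 to 3007 in ovary arrays, highest in the 4 WT ovary arrays; their part was not tested.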

How the results depend on the processing

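Of 37 calls of single members, 14 were kept wherever the member was tested in 15 alternatives and 16 fits without 1 array, and 0 changed direction in these. Among the 14 were Phlda2 calls, in KO against WT averaged, testis against ovary at E12.5 and averaged, and the F test. Phlda2 was not tested with the filter at 8 arrays, so these calls were not tried there. Leaving out arrays with over 10% RNA of the other sex, and crossing the replicate numbers, were chosen after seeing the data. Counts of members called that moved by over 1.5 times follow, each with the share of all genes called in the same fit. With the filter at 8 arrays Phlda2 was not tested, so the count was 0 for KO against WT ovary at E12.5 (0.123%), 0 for KO against WT averaged (1.38%), 0 for testis against ovary at E12.5 (0.622%), 1 for stage in WT ovary (4%) and 0 for the knock-out effect between sexes (0%). Fitting only the arrays of a comparison gave 0 for KO against WT ovary at E12.5 (0%), 1 for stage in WT ovary (0.94%) and 12 for stage in WT testis (27.3%). Array weights gave 1 for KO against WT testis at E12.5 (2.96%), 14 for stage in WT testis (31.9%) and 19 in the F test (47.2%). Without the arrays of high 3′ to 5′ ratio the counts were 1 for KO against WT testis at E12.5 (1.43%), 3 for testis against ovary at E14.5 (4.98%), 0 for the knock-out effect between sexes (0.154%), 0 for the stage effect between sexes (1.39%) and 9 in the F test (19.7%). Without the arrays with over 10% RNA of the other sex they were 8 for testis against ovary at E12.5 (24%), 1 at E14.5 (10.6%) and 9 averaged (31%), 5 for stage in WT ovary (17.5%), 3 in WT testis (9.59%) and 7 averaged (36.6%), 1 for the knock-out effect between stages (0.0324%), 7 for the stage effect between sexes (36.1%) and 9 in the F test (45.2%). The share of such RNA as a covariate gave 1 for testis against ovary at E14.5 (4.47%), 3 for stage in WT testis (8.35%), 0 for the knock-out effect between sexes (0.0162%) and 1 for the stage effect between sexes (9.76%). Averaging the near-identical pair gave 0 for stage in WT testis (2.38%), 0 for the knock-out effect between sexes (0%) and 0 for the stage effect between sexes (2.8%). The mean of probe sets gave 1 for testis against ovary at E14.5 (3.7%), and no intensity trend gave 0 for the knock-out effect (0.0162%) and 1 for the stage effect between sexes (9.18%). The cause of these shifts was not tested.

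Without 1 array at a time, the counts were 1 to 1 for KO against WT ovary at E12.5, 0 to 1 for KO against WT ovary at E14.5, 1 to 5 and 0 to 2 for testis against ovary at E12.5 and E14.5, 4 to 7 averaged, 2 to 3 and 0 to 8 for stage in WT ovary and WT testis, 9 to 12 averaged, 0 to 1 for the knock-out effect between sexes and between stages, 0 to 5 for the stage effect between sexes, and 4 to 9 in the F test. With the replicate block, which the labels do not ground as a pairing, the counts were 0 for the knock-out effect (0.0162%) and 1 for the stage effect between sexes (6.4%), and the other counts stayed within 1.5 times. With crossed replicate numbers, the replicate block gave 3 for testis against ovary at E14.5 (5.8%), 5 for the stage effect between sexes (18%) and 11 in the F test (29.7%). Phlda2, Kcnq1, Peg10, Usp29 and Slc22a18 lay below the array median on 7 to 14 arrays, and the sizes of their changes depend on the added constant.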
